A study of Homo sapiens with 12 samples.

Results

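The expression of 31 genes of epithelial cell junctions was followed in HT-29, a human colon adenocarcinoma cell line in long use whose own APC is mutant. They were picked by gene symbol, by a rule that uses no measured value, though earlier results of these data were known then. All 31 were found among the 25528 rows of the expression table: 16 belong to tight junctions, 7 to adherens junctions or their close partners, and 8 to desmosomes. RNA-seq covered 12 libraries in 4 groups of 3. In the first arm, cells were infected with lentivirus carrying an open reading frame for GFP (the control) or for CTNNB1, which encodes beta-catenin, and were collected 2 days later. In the second arm the lentivirus carried a hairpin, targeting APC (shAPC) or serving as control (shNT1), and 2 µM doxycycline was given for 1 day before collection. The study asked how stronger WNT signalling, reached by either route, changes expression. All cells shared the mutant APC background, and the arms differ in vector, collection time and doxycycline, so levels in one arm cannot be told apart from those effects when set against the other arm. The labels do not say whether replicates were separate cultures, so the p-values measure the spread between these libraries, which may be technical.

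Tight junctions seal the space between neighbouring epithelial cells. Claudins form their strands and set which ions and water pass, occludin and the MARVEL proteins sit beside them, and TJP and cingulin proteins tie them to actin. Adherens junctions hold cells together through E-cadherin (CDH1), whose tail binds beta-catenin, p120-catenin (CTNND1) and, through beta-catenin, alpha-catenin (CTNNA1). Beta-catenin therefore serves both as a junction protein and as the transcriptional partner of TCF/LEF factors in WNT signalling, while APC helps mark its free pool for destruction. Desmosomes join keratin filaments of adjacent cells through desmoglein and desmocollin cadherins, plakoglobin (JUP), plakophilins and desmoplakin (DSP).

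Expression is given in TPM, a transcript abundance that corrects for gene length and totals the same in every library. APC was 15.8, 16.1 and 17.3 TPM in shNT1 replicates 1 to 3 and 6.59, 5.91 and 5.48 in shAPC, and fell by 1.32 on the log2 scale (limma adjusted p = 6.1e-06). CTNNB1 was 144, 145 and 149.6 TPM in GFP and 165, 159.6 and 156 in the CTNNB1 group, a log2 difference of 0.13 that did not pass the test (limma adjusted p = 0.059) while no library of one group reached into the range of the other. Whether the table counts reads of the introduced open reading frame in full is not stated, which limits this check. Between 14756 and 16186 genes were above 0 per library, and the junction genes took 0.337% to 0.421% of all TPM. Depth per library is unknown, because TPM does not keep it. Of 10 colon epithelium markers, 8 averaged at least 1 TPM over the 12 libraries, and the intestinal transcription factors CDX1 and CDX2 did not. Of these 8, 3 rose and 3 fell with CTNNB1, against 16.3% and 7.16% of all genes tested, and 5 fell with shAPC, against 14.9%. VIL1 rose by 0.47 on the log2 scale with CTNNB1. CEACAM5 fell by 1.08 and 1.27 on the log2 scale and LGALS4 by 0.52 and 0.61 in the 2 arms, and KRT20 fell by 0.61 with shAPC. Among 8 mesenchymal genes TWIST1 and TWIST2 were at 0 and only SNAI1 averaged at least 1 TPM. Their summed level was 1.43 to 2.46 TPM in GFP, 3.38 to 3.61 in CTNNB1, 1.76 to 2.91 in shNT1 and 2.88 to 3.26 in shAPC. Of these 8 genes, 1 was expressed enough to be tested in the CTNNB1 arm and 2 in the hairpin arm, and 0 were called. The 8 fibroblast markers summed to between 0.709 and 2.18 TPM. The 4 endothelial markers summed to 0.62 to 1.13 TPM in the first arm, 2.04 to 2.16 in shNT1 and 0.8 to 0.87 in shAPC. Of 6 leukocyte markers, CD3E was at 0 and PTPRC averaged at most 0.0125 TPM, while CD68 averaged 27 TPM in GFP, 13.2 in CTNNB1, 13.8 in shNT1 and 7.51 in shAPC. LYZ held nearly all of that list's sum, with group means from 6509 to 7534 TPM. The part of these markers in the junction results was not tested.

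Junction transcripts spanned a wide range of levels. EPCAM, an adhesion protein of epithelial membranes, averaged 1589 TPM over the 12 libraries, followed by CDH1 at 315 TPM, CTNNA1 at 243 TPM and CLDN4 at 236 TPM. CLDN15 (2.29 TPM) and CLDN23 (1.93 TPM) were the lowest of the 29 genes tested, and CTNND1 averaged 7.79 TPM. CDH17 and PKP1 averaged 0.467 and 0.243 TPM and were not tested, since the fits used genes with a mean of at least 1 TPM.

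**Figure D1:**
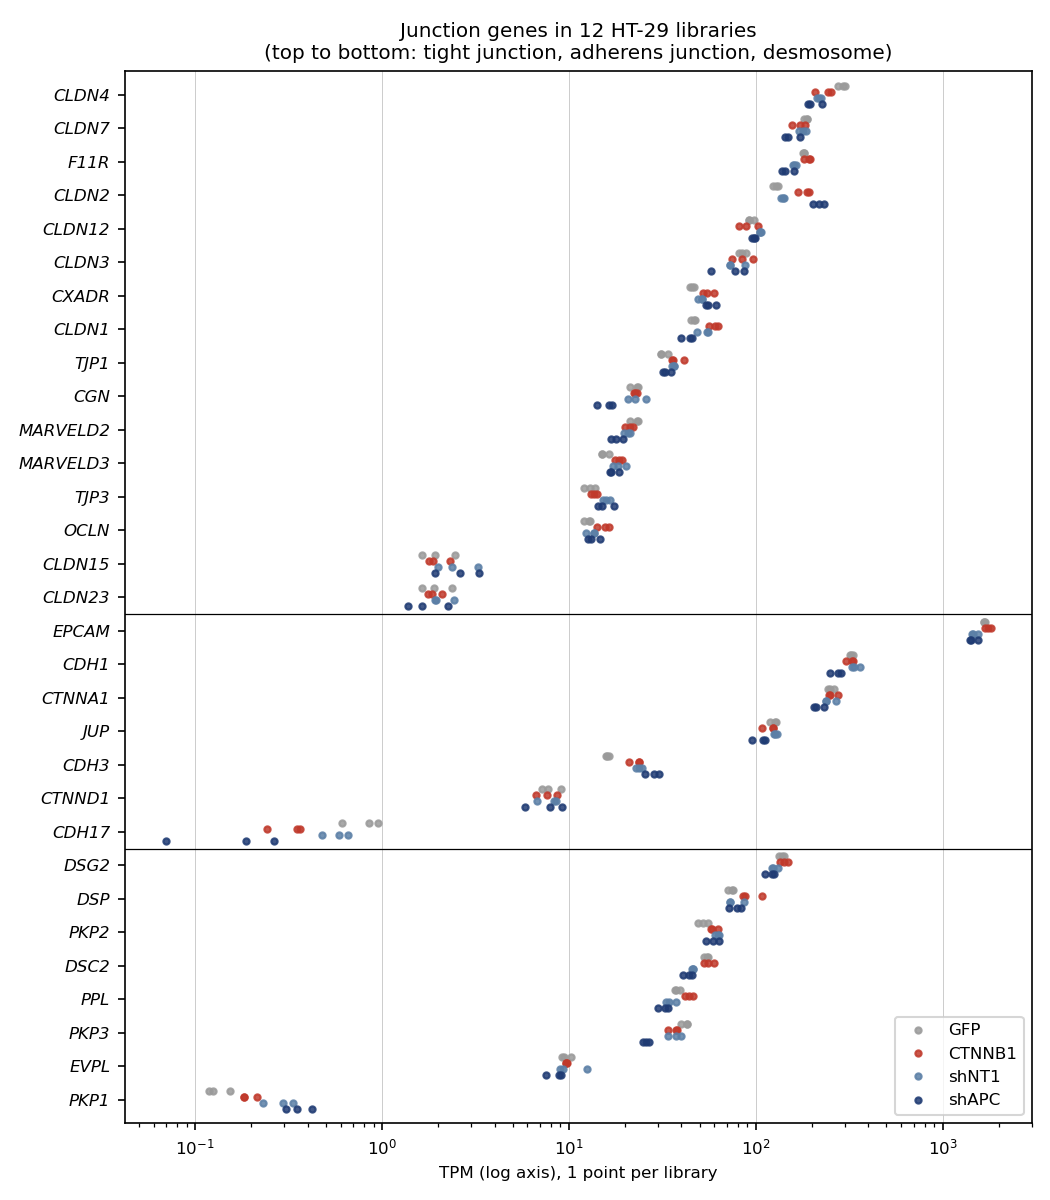
TPM of the 31 junction genes on a log axis, with 1 point per library, coloured by group, ordered by mean level within tight junction, adherens junction and desmosome genes. EPCAM lies highest, CDH17 and PKP1 lie below 1 TPM in every library, and most genes sit in a narrow band across the 4 groups.

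Promoter sequences are shown for CLDN2 and CGN, which had the largest rise and the largest fall on the log2(TPM + 1) scale under shAPC among the 29 junction genes tested. They come from RefSeq (GRCh38.p14), which matched 18 of the 31 genes with 30 windows. Each is the 250 bases before an annotated start, written 5′ to 3′ on the plus strand, and capitals mark motif matches. CLDN2 has 2 such windows, and the one at chrX:106918110-106918359 is printed. The CGN window is chr1:151511137-151511386.
CLDN2: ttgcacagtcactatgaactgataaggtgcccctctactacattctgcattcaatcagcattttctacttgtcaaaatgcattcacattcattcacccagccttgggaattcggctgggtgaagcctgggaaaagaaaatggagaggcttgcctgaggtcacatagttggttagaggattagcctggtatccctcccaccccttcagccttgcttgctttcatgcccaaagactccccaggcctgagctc
CGN: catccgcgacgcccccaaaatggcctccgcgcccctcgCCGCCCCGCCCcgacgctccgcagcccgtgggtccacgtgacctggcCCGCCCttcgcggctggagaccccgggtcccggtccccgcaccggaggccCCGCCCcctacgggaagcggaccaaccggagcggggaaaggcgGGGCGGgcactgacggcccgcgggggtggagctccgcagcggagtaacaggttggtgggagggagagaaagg
The motifs searched, on both strands, were ATCAAAG (a TCF/LEF core), the close variant TTCAAAG, the sequence CACCTG (an E-box bound by repressors of epithelial genes), the core promoter element TATAAA, and CCGCCC, known as the GC box. Matches may overlap one another, as the first 2 in CGN do. None of the 5 is present in either CLDN2 window, whose GC contents are 46% and 48.8%. CGN has 5 GC boxes and a GC content of 76%, against a median of 58% over all 35116 windows. Over the 30 junction gene windows, CCGCCC was found in 70% and CACCTG in 30%, against 42.6% and 17.5% of all windows. ATCAAAG was found in 2 junction gene windows, both of CTNNA1 (2.26% of all windows hold it). The variant TTCAAAG was found in none of them (3.8% of all windows), and the core promoter element likewise in none (10.7%). These matches describe the letters in the windows only.

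Under CTNNB1, 10 junction genes rose and 2 fell, mostly by modest amounts. The claudins CLDN2 and CLDN1 and the cadherin CDH3 rose most, by 0.51, 0.37 and 0.48 on the log2(TPM + 1) scale, and CLDN4 and PKP3 fell. Fold changes on this scale understate those of weakly expressed genes. As these are bulk cultures, fewer cells of a kind and less RNA per cell cannot be told apart. A gene was called when its limma adjusted p over all genes tested was under 0.05. By that rule 12 of 29 junction genes were called, against 23.5% of the 11624 genes tested (16.3% higher and 7.16% lower). The median log2 change of the 29 was 0.03, against 0.06 over all genes. In 11 of the 29 all CTNNB1 libraries lay above all GFP libraries and in 2 below, against 30.2% and 13% of all genes (43.2% in either direction). The count of 12 depended on single libraries: it was 5, 4 and 5 without GFP replicates 1, 2 and 3, and 6 without CTNNB1 replicate 2. The share of all genes called fell in the same fits, to 13.9%, 12.9%, 14.6% and 15.2% in that order. Among calls over all genes 69.5% were rises, against 49.4% with median-ratio scaling and 52.9% with quantile normalization, where junction genes counted 7 up with 2 down and 8 up with 2 down.

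Under shAPC 2 junction genes were called higher and 5 lower, and the calls over all genes also leaned to falls. CLDN2 and CDH3 rose, by 0.63 and 0.24, while CGN, PKP3, CDH1, CLDN1 and JUP fell by 0.51, 0.50, 0.33, 0.28 and 0.27. The 7 called of 29 stand beside 22.1% of the 11834 genes tested (7.24% higher and 14.9% lower). The median log2 change was -0.10, against -0.04 over all genes. In 3 of the 29 all shAPC libraries lay above all shNT1 libraries and in 10 below, against 14.5% and 26.4% of all genes (40.9% in either direction). Among calls over all genes 32.8% were rises, against 47.6% with median-ratio scaling and 49.4% with quantile normalization. Junction genes then counted 2 up with 4 down, and 3 up with 3 down. Within the shAPC group replicate 3 was the lowest library for 22 of the 29 junction genes, and for 51.2% of all genes. Replicate 2 was the highest for 18 (25.3% of all genes). The first arm had such libraries too. GFP replicate 3 was the highest of its group for 22 (46.5%), GFP replicate 1 the lowest for 20 (37.1%), and CTNNB1 replicate 3 the lowest for 19 (45.5%).

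**Figure D2:**
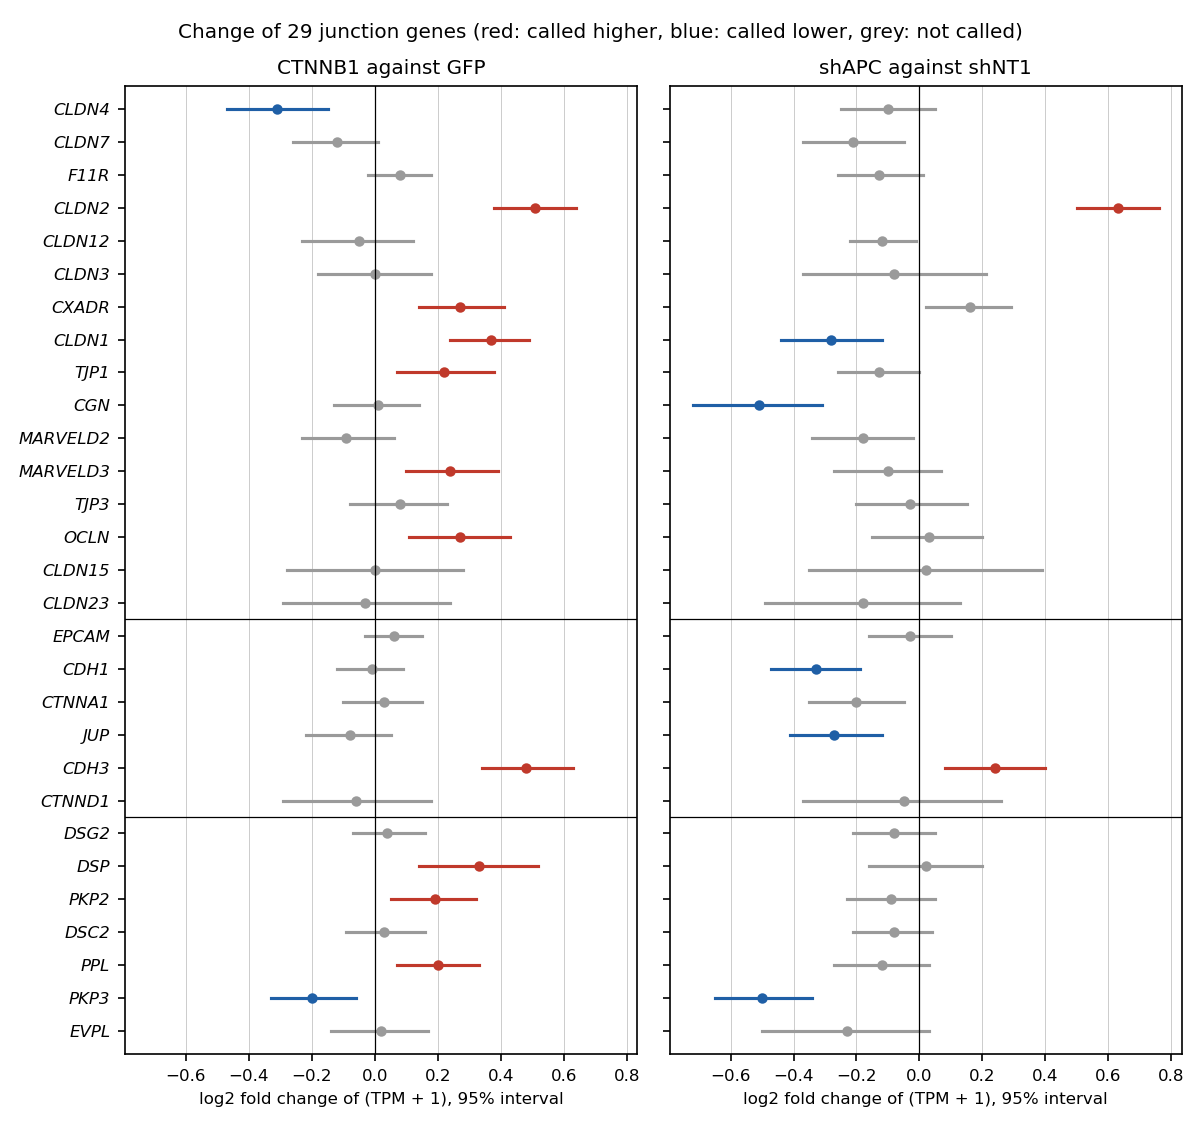
Log2 fold change of TPM + 1 with its 95% interval for the 29 junction genes tested, CTNNB1 against GFP on the left and shAPC against shNT1 on the right. Red marks a gene called higher and blue one called lower; 10 are red and 2 blue on the left, 2 red and 5 blue on the right.

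Among the claudins, CLDN2 makes a channel for sodium and water. Its TPM in replicates 1 to 3 was 124, 129 and 131 in GFP and 187, 192 and 168 in CTNNB1. In the hairpin arm it was 140.4, 137 and 142 in shNT1 and 219, 230.4 and 202 in shAPC. Every perturbed library lay above every control of its arm. The rise was 1.42-fold with CTNNB1 (log2 0.51, SE 0.06, limma adjusted p = 0.00025) and 1.55-fold with shAPC (log2 0.63, SE 0.06, limma adjusted p = 6.5e-05). The difference between the arms' effects was not called, at -0.12 with a 95% interval from -0.30 to 0.05. About 10% of CLDN2 exonic bases are shared with RIPPLY1 on the opposite strand, and the strandedness of the counting is not stated. CLDN2 (ENSG00000165376) lies at chrX:106900164-106930861 in GENCODE v29 on GRCh38.

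CLDN1, a sealing claudin, moved in opposite directions. It was 44.8, 47.2 and 46.6 TPM in GFP and 63.1, 60.5 and 56.5 in CTNNB1, with no overlap (log2 0.37, SE 0.06, limma adjusted p = 0.0015). It was 54.7, 55.3 and 48.4 TPM in shNT1 and 44.6, 45.8 and 39.8 in shAPC, again with no overlap but in the downward direction (log2 -0.28, SE 0.07, limma adjusted p = 0.023). That fall lost its call without shNT1 replicate 1 or 2 or shAPC replicate 1 or 3, with adjusted p between 0.051 and 0.085, and under both other scalings. The call was also lost without the filter (limma adjusted p = 0.066). Of all 11556 genes tested in both arms, 1.03% were called in opposite directions.

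CLDN4, a further barrier-forming claudin, fell with CTNNB1. Its TPM was 277, 293 and 299 in GFP and 207, 253 and 242 in CTNNB1. All 3 CTNNB1 libraries were lower, a log2 change of -0.31 with SE 0.07 (limma adjusted p = 0.013), which was no longer called without GFP replicate 3 (adjusted p = 0.059). In the hairpin arm its values overlapped, at 212, 219 and 222 TPM in shNT1 and 194, 226 and 190.4 in shAPC. The 5 other claudins were not called in either arm. CLDN7, CLDN3 and CLDN12 averaged 172, 80.4 and 96.7 TPM over the 12 libraries. CLDN7 came closest, with a log2 change of -0.21 in shAPC (limma adjusted p = 0.060).

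The share of CLDN2 in the claudin pool was higher in each perturbed group than in its control, while the summed level of the pool overlapped. The 8 claudins summed to 832 ± 20 TPM in GFP, 827 ± 45 in CTNNB1, 777 ± 7.3 in shNT1 and 794 ± 63 in shAPC (SD, n = 3 each). CLDN2 supplied 15.4% ± 0.074 of that sum in GFP and 22.1% ± 1.4 in CTNNB1, and 18.0% ± 0.43 in shNT1 and 27.4% ± 0.73 in shAPC (SD, n = 3 each). CLDN4 supplied 34.8% ± 0.5, 28.3% ± 2, 28.1% ± 0.44 and 25.6% ± 0.66 in the same order (SD, n = 3 each). These shares do not change when a whole library is multiplied by a single factor, as in median-ratio scaling. Quantile normalization can change them, and they were not computed under it.

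**Figure D3:**
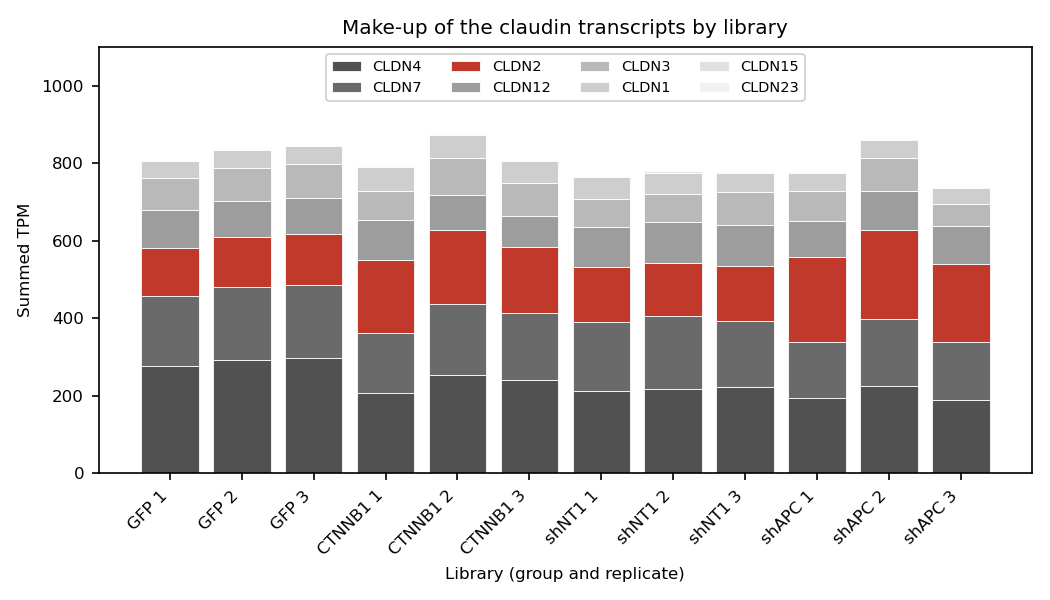
Summed TPM of the 8 claudins in each library, stacked by gene, with CLDN2 in red and the others in grey. The red part is 15.4% of the bar on average in GFP and 22.1% in CTNNB1, 18.0% in shNT1 and 27.4% in shAPC. Bar heights overlap between the perturbed group and its control within each arm.

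The other membrane proteins of the tight junction were higher with CTNNB1 in part. Occludin (OCLN) was 12.8, 12.1 and 12.9 TPM in GFP and 16.4, 15.6 and 14.2 in CTNNB1 (log2 0.27, SE 0.07, limma adjusted p = 0.022). MARVELD3, of the same family, was 15, 15.1 and 16.3 TPM in GFP and 19.2, 18.6 and 17.7 in CTNNB1 (log2 0.24, SE 0.06, limma adjusted p = 0.021). CXADR, an adhesion receptor also used by coxsackie and adenoviruses, was 45.5, 44.6 and 46.9 TPM in GFP and 60, 54.6 and 51.9 in CTNNB1 (log2 0.27, SE 0.06, limma adjusted p = 0.012). In each of the 3 the groups did not overlap. Their hairpin-arm values were not called. OCLN was 13.7, 12.3 and 13.7 TPM in shNT1 and 13.1, 14.7 and 12.6 in shAPC, MARVELD3 was 17.3, 18.4 and 20.1 against 18.6, 16.5 and 16.8, and CXADR was 51.8, 51.5 and 49.3 against 54.1, 61.2 and 55.2. Only CXADR among them had all shAPC libraries above all shNT1 libraries (log2 0.16, limma adjusted p = 0.095). The OCLN call was lost without GFP replicate 1, 2 or 3 or CTNNB1 replicate 2 (adjusted p 0.056 to 0.095), that of MARVELD3 without GFP replicate 1 or 2 or CTNNB1 replicate 2 (0.073 to 0.093), and that of CXADR without GFP replicate 2 (0.058). OCLN has the pseudogene OCLNP1 on the same chromosome and CXADR has pseudogenes too, so their reads may be split, and 18.1% of MARVELD3 exonic bases lie opposite other genes. MARVELD2 and F11R (an immunoglobulin-type adhesion molecule) averaged 20.6 and 169.8 TPM and were not called in either arm, and 36.6% of F11R exonic bases are shared with another gene on its strand.

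On the cytoplasmic side, TJP1 (ZO-1), a scaffold for claudins, was 30.9, 31.2 and 33.7 TPM in GFP and 41.3, 35.4 and 35.9 in CTNNB1. The CTNNB1 values were all higher (log2 0.22, SE 0.07, limma adjusted p = 0.045), but the call was lost without GFP replicate 1, 2 or 3 or CTNNB1 replicate 2 (adjusted p 0.055 to 0.15) and under both other scalings. It was also lost without the filter (0.091) and without the variance trend (0.07). In the hairpin arm TJP1 was 35.8, 36.6 and 36.6 TPM against 35.1, 32.8 and 31.7, all lower without a call (log2 -0.13, limma adjusted p = 0.14). Cingulin (CGN), which links the junction to actomyosin, was 20.7, 22.6 and 25.8 TPM in shNT1 and 16.9, 16.4 and 14.2 in shAPC. It fell by 0.51 on the log2 scale (SE 0.09, limma adjusted p = 0.0035) with no overlap. In the CTNNB1 arm it was 21.3, 23.2 and 23.3 TPM against 23.2, 22.6 and 22.2, and its log2 difference was 0.01 with a 95% interval from -0.13 to 0.14. TJP3 (ZO-3) averaged 14.5 TPM and was not called. CGN lies at chr1:151510510-151538692.

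Of the cadherins, CDH3 (P-cadherin) rose in both arms. It was 15.9, 16.3 and 15.8 TPM in GFP and 20.9, 23.8 and 23.7 in CTNNB1 (log2 0.48, SE 0.07, limma adjusted p = 0.0008). It was 23.6, 24.5 and 22.8 TPM in shNT1 and 28.6, 30.3 and 25.6 in shAPC (log2 0.24, SE 0.07, limma adjusted p = 0.037). The groups did not overlap in either arm. The shAPC call was lost when any of the libraries except shAPC replicate 3 was left out (adjusted p 0.052 to 0.13), without the filter (0.080) and without the variance trend (0.059). Exons of an antisense gene cover 11.1% of CDH3 exonic bases, and with strandedness not stated such reads cannot be told apart.

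CDH1 (E-cadherin), the chromosome 16 neighbour of CDH3 (chr16:68737225-68835548 and chr16:68636189-68722616), was called lower with shAPC and not called with CTNNB1. Its TPM was 324, 320.4 and 329.7 in GFP and 333, 328 and 305 in CTNNB1, values that overlapped (log2 -0.01, 95% interval -0.12 to 0.09). It was 327, 337 and 362 TPM in shNT1 and 277, 287 and 251 in shAPC, with no overlap (log2 -0.33, SE 0.06, limma adjusted p = 0.0047). The difference between the arms was itself called, at 0.32 (limma adjusted p = 0.017), but not with median-ratio scaling (0.21, adjusted p = 0.053). P-cadherin transcripts per 100 of E-cadherin numbered 4.93 ± 0.15 in GFP, 7.11 ± 0.76 in CTNNB1, 6.93 ± 0.54 in shNT1 and 10.4 ± 0.18 in shAPC (SD, n = 3 each). CDH17, the intestinal liver-intestine cadherin, was at 0.607 to 0.955 TPM in GFP, 0.243 to 0.365 in CTNNB1, 0.476 to 0.654 in shNT1 and 0.0698 to 0.264 in shAPC. It stayed below the level needed for the fit. Without that filter its log2(TPM + 1) change was -0.45 with CTNNB1 and -0.42 with shAPC (limma adjusted p = 0.020 and 0.021). The authors' deposited log2 changes were larger, at -1.35 and -1.74, and the second was not called (limma adjusted p = 0.029 and 0.056).

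Plakoglobin (JUP), a relative of beta-catenin shared by adherens junctions and desmosomes, was 125, 130.2 and 127 TPM in shNT1 and 112, 109 and 95.6 in shAPC. All shAPC libraries were lower (log2 -0.27, SE 0.06, limma adjusted p = 0.016), and the call was lost without shAPC replicate 3 (adjusted p 0.050, rounded) and with quantile normalization (0.061). In the CTNNB1 arm JUP overlapped at 119, 126 and 129 TPM in GFP against 108, 123 and 123. The difference between the arms' effects on JUP was not called (limma adjusted p = 0.19). CTNNA1, CTNND1 and EPCAM were not called in either arm. CTNNA1 was lower in every shAPC library, at a log2 change of -0.20 (limma adjusted p = 0.056), and EPCAM differed by 0.06 and -0.03.

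Of the 7 desmosomal genes tested, 4 were called in the CTNNB1 arm (3 higher, 1 lower) and 1 in the hairpin arm (lower), against 23.5% and 22.1% of all genes. Desmoplakin (DSP), which anchors keratin, was 71.3, 74.7 and 75.8 TPM in GFP and 108, 87.3 and 85.6 in CTNNB1 (log2 0.33, SE 0.08, limma adjusted p = 0.019). Periplakin (PPL), another keratin linker, was 37, 37.6 and 39.5 TPM in GFP and 46.1, 43.7 and 41.9 in CTNNB1 (log2 0.20, SE 0.06, limma adjusted p = 0.030). Plakophilin 2 (PKP2) was 48.8, 52.4 and 55.3 TPM in GFP and 62.5, 58.4 and 57.6 in CTNNB1 (log2 0.19, SE 0.06, limma adjusted p = 0.049). All 3 had no overlap, and for DSP the first CTNNB1 library stood highest. DSP lost its call without GFP replicate 1, 2 or 3 (adjusted p 0.053 to 0.072), PPL without those or CTNNB1 replicate 2 (0.052 to 0.12), and PKP2 without those or CTNNB1 replicate 1 or 2 (0.051 to 0.19). With all libraries kept, median-ratio scaling ended the calls of PPL (0.053) and PKP2 (0.11), and PKP2 was also lost with a pseudocount of 0.1 (0.050, rounded), without the filter (0.084), with quantile normalization (0.069) and without the variance trend (0.082). Hairpin-arm values of DSP were 72.8, 72.7 and 86.6 TPM in shNT1 and 79.5, 83.3 and 72.2 in shAPC. PPL was 33.2, 34.2 and 37.6 against 32.5, 34 and 30, and PKP2 was 60.8, 63.1 and 63.7 against 63.7, 58.7 and 54.1, all overlapping and not called.

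Plakophilin 3 (PKP3) fell in both arms. It was 39.9, 42.7 and 42.9 TPM in GFP and 34, 37.4 and 37.8 in CTNNB1 (log2 -0.20, SE 0.06, limma adjusted p = 0.041). It was 33.8, 37.2 and 40 TPM in shNT1 and 26.8, 26 and 24.9 in shAPC (log2 -0.50, SE 0.07, limma adjusted p = 0.00097). Every perturbed library was below its controls. The CTNNB1-arm call was lost without GFP replicate 1, 2 or 3 or CTNNB1 replicate 2 (adjusted p 0.063 to 0.15). With all libraries kept it was lost without the filter (0.065) and without the variance trend (0.063). PKP2 per PKP3 transcript averaged 1.24 in GFP and 1.64 in CTNNB1, and 1.70 in shNT1 and 2.27 in shAPC. DSG2, DSC2 and EVPL averaged 131, 49.9 and 9.51 TPM and were not called in either arm, and PKP1 lay between 0.118 and 0.424 TPM.

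**Figure D4:**
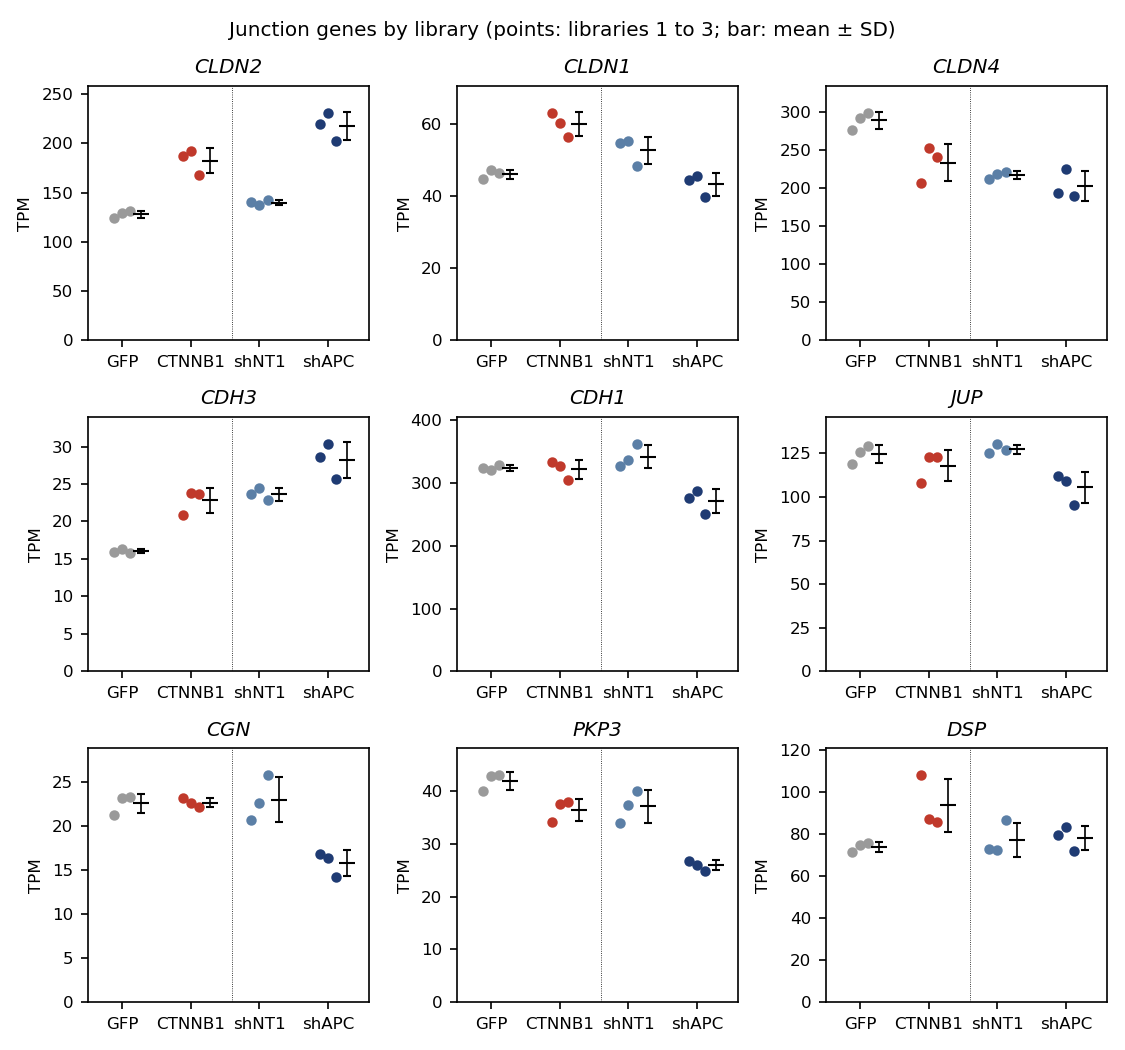
TPM of 9 junction genes in each library, with points for replicates 1 to 3 and the mean ± SD beside them, on axes that start at 0. CLDN2 and CDH3 are higher in both perturbed groups than in their controls, PKP3 is lower in both, and CLDN1 is higher with CTNNB1 and lower with shAPC.

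In both arms 4 junction genes were called. CLDN2 and CDH3 rose and PKP3 fell in both, and CLDN1 changed in opposite directions. Over all 11556 genes tested in both arms, 7.31% were called in both with the same direction and 37.3% in at least 1 arm. Of the 29 junction genes 16 had the same sign in both arms, and across them the log2 changes had Pearson 0.63 and Spearman 0.52, given as a description. The 14 called in neither arm had 95% intervals reaching no further from 0 than 0.29 in the CTNNB1 arm and 0.50 in the hairpin arm. For the 10 of them with a mean of at least 10 TPM, the intervals lay between -0.26 and 0.23 and between -0.37 and 0.21. None of the 29 junction genes tested changed by 1 or more on the log2(TPM + 1) scale in either arm. CDH17, not among them, went from a mean of 0.803 to 0.319 TPM with CTNNB1 and from 0.573 to 0.174 TPM with shAPC.

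The effects of the arms were compared gene by gene in 1 fit of all 12 libraries, by subtracting the shAPC effect from the CTNNB1 effect. This difference was called for 7 of 29 junction genes, against 16.1% of 11741 genes, and all 7 were positive (13.3% of all genes positive, 2.76% negative). CLDN1 differed most (0.65, SE 0.09, limma adjusted p = 0.00067), then CGN (0.52, SE 0.11, 0.009). TJP1 (0.35), MARVELD3 (0.34), CDH1 (0.32), PPL (0.32) and PKP3 (0.30) followed with adjusted p from 0.017 to 0.042. CLDN4, OCLN, CXADR, DSP, PKP2 and JUP were each called in 1 arm only, yet their difference was not called (limma adjusted p 0.051 to 0.37). For them a call in 1 arm does not show that the effects differed. The median over the junction genes was 0.18 and over all genes 0.11. Median-ratio scaling and quantile normalization each brought the median of all genes to 0 and left 3 junction genes called; the share of positive calls over all genes went from 82.8% to 55% and 56.5%. The count was 3 without GFP replicate 1, GFP replicate 2 or shAPC replicate 3, and 4 without CTNNB1 replicate 2 or shNT1 replicate 3. Over all genes the share called in those fits was 9.29%, 8.46%, 8.7%, 12.1% and 11.1% in that order. CLDN1 and CGN were called in each of those fits.

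Other junction and polarity genes, from lists with no overlap with the 31, were counted in the same fits. Among further tight junction genes, whose counts are not reported here, MAGI3 (log2 -0.41) and PATJ (-0.20) fell with shAPC and were not called with CTNNB1. Of 12 further adherens junction genes tested, 6 rose and 1 fell with CTNNB1, and the counts in these lists stand against 16.3% higher and 7.16% lower over all genes with CTNNB1, and 7.24% and 14.9% with shAPC. VCL, the actin linker vinculin, went from 66.7 ± 1.4 to 89.1 ± 2.7 TPM (SD, n = 3; log2 0.41, limma adjusted p = 0.00029), AJUBA rose by 0.35 and VEZT fell by 0.34. With shAPC 3 fell, LIMA1 (-0.36), CTNNAL1 (-0.27) and AFDN (-0.25), and none rose. The connexins GJB1 (-0.43) and GJB2 (-0.31), which form gap junctions, fell with shAPC and were not called with CTNNB1. Counts for the connexin list are likewise not reported here. PKP4 rose with CTNNB1 (0.26) and PERP fell with shAPC (-0.18), of 2 further desmosome genes tested. Of 12 polarity genes tested, PARD6B rose with CTNNB1 (0.39), and LLGL2 (-0.31) and DLG1 (-0.18) fell with shAPC. Among 10 regulators of epithelial genes, 3 rose and 1 fell with CTNNB1, and 1 rose and 2 fell with shAPC. KLF4, which acts in epithelial differentiation, fell in both arms. Its mean went from 12.3 to 8.33 TPM with CTNNB1 (log2 -0.52, limma adjusted p = 0.0016) and from 10.5 to 5.94 TPM with shAPC (-0.73, 0.00027).

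The authors' deposited table for CTNNB1 called 7 junction genes higher and 1 lower (CDH17, not tested here), and their table for APC called 1 higher and 3 lower. The share of all genes called in those tables is not given here, so these counts have no background beside them. Of the calls made here 7 of 12 and 4 of 7 were shared. CLDN4, TJP1, DSP, PKP2 and PKP3 in the first arm, and CLDN1, CDH3 and JUP in the second, were called here only. In the authors' deposited tables CLDN2 changed by 0.44 and 0.67 and CDH1 by -0.09 and -0.29.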

How the data were processed

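Libraries were made from HT-29 RNA with an mRNA kit. The authors deposited a table of TPM per gene and library; STAR 2.7.3a, limma and hg38 are named in the submitters' processing notes, without their roles. The quantifier and annotation are not given in the sources used here. The authors' deposited tables of each comparison hold log2 fold changes and p-values, adjusted p-values included, per the file headers. Here limma 3.58.1 (R 4.3.3) was fitted to log2(TPM + 1), for genes with a mean of at least 1 TPM, with a mean-variance trend and Benjamini-Hochberg adjustment over all genes tested. Each arm was fitted alone, and the contrast between the arms on all 12 libraries. The script was tested on simulated data. TPM keeps no depth, so no counting interval is given. The junction genes and the other lists were chosen with earlier results of these data known. All called junction genes are named, and from each other list at most 3 called genes per arm, with the largest changes among those of at least 5 TPM; CDH17 was singled out after its values were seen. Some genes of the other lists are not reported here. Positions and exon overlaps come from GENCODE v29. Alternatives were a pseudocount of 0.1, no filter, at least 5 TPM, median-ratio scaling, quantile normalization, no variance trend, 1 fit of all 4 groups, the replicate number as a block, and each library left out.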

Additional observations from a re-analysis of the deposited data

Results flagged for a closer look

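For 7 junction genes the effect of CTNNB1 differed from that of shAPC by a test of the difference itself (limma, 12 libraries). The CTNNB1 effect minus the shAPC effect was 0.65 for CLDN1, 0.52 for CGN, 0.35 for TJP1, 0.34 for MARVELD3, 0.32 for CDH1, 0.32 for PPL and 0.30 for PKP3 on the log2 scale. CLDN1 was called in opposite directions in the arms, and CGN and CDH1 were called only under shAPC. TJP1, MARVELD3 and PPL were called only with CTNNB1, and PKP3 was lower in both arms, more so with shAPC. The TJP1 difference was not called without GFP replicate 1 or 2 or shAPC replicate 3 (adjusted p 0.056 to 0.057). That of MARVELD3 was not called without GFP replicate 1 or 2, CTNNB1 replicate 1 or 2, shNT1 replicate 3 or shAPC replicate 2 or 3 (0.051 to 0.076). That of PPL was not called without GFP replicate 1 or 2, CTNNB1 replicate 1 or 2, shNT1 replicate 3 or shAPC replicate 3 (0.050 to 0.075). That of PKP3 was called in 3 of the 12 fits that left out a library, those without CTNNB1 replicate 1, shNT1 replicate 1 or shAPC replicate 1, with 0.060 to 0.11 in the rest. Median-ratio scaling ended the calls of MARVELD3 (0.056), CDH1 (0.053), PPL (0.065) and PKP3 (0.18), and quantile normalization those of TJP1 (0.053), MARVELD3 (0.073), PPL (0.065) and PKP3 (0.13). Without the filter MARVELD3 (0.051) and PKP3 (0.074) lost their calls, as did PKP3 without the variance trend (0.06). With the replicate number as a block only CLDN1 and CGN stayed called, and the others had adjusted p from 0.051 to 0.079. The arms also differ in vector, collection time and doxycycline, which cannot be told apart from the perturbation.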

How the results depend on the processing

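Across all alternatives, leaving out each library included, the calls held for CLDN1, CLDN2 and CDH3 with CTNNB1, for CLDN2, CGN, CDH1 and PKP3 with shAPC, and for CLDN1 and CGN in the contrast. No called junction gene changed sign. Without the filter 7 junction genes were called with CTNNB1 instead of 12, with CDH17 added and CLDN4, OCLN, TJP1, DSP, PKP2 and PKP3 lost (adjusted p 0.051 to 0.091). With median-ratio scaling the median junction gene change was -0.03 with CTNNB1 (0.03 as reported) and -0.05 with shAPC (-0.10 as reported), and with quantile normalization it was -0.04 with shAPC. In the contrast, median-ratio scaling called 3 junction genes, as did quantile normalization. The log2 change of CTNNB1 under shAPC, 0.00 as reported, was 0.05 with median-ratio scaling, 0.08 with quantile normalization, 0.02 without shNT1 replicate 3 and 0.04 without shAPC replicate 3. Leaving out each library gave 1499 to 3190 genes and 4 to 12 junction genes called with CTNNB1, with a median junction gene change of 0.02 to 0.07. It gave 1484 to 2252 genes and 5 to 7 junction genes called with shAPC (median -0.13 to -0.08), and 995 to 2143 genes and 3 to 9 junction genes in the contrast. Deviations of libraries with the same replicate number had correlations of 0.22, 0.07 and 0.11 in the CTNNB1 arm, and -0.15, -0.01 and -0.21 in the hairpin arm. The mean was 0.13 for the same number and -0.07 for different numbers in the CTNNB1 arm, and -0.12 and 0.06 in the hairpin arm. Deviations were taken from the mean of each group, so the second value of each pair nearly follows from the first and is no separate support. Each library correlated best with its own number in 6 of 6 and 0 of 6 libraries. The numbers thus went together weakly in the CTNNB1 arm and not in the hairpin arm, and the labels do not say what they stand for. With the replicate number as a block, 2895, 1767 and 1145 genes and 11, 6 and 2 junction genes were called with CTNNB1, with shAPC and in the contrast. The block ended the calls of PKP2 with CTNNB1 (adjusted p 0.063) and CDH3 with shAPC (0.055), and in the contrast those of CDH1, TJP1, PKP3, PPL and MARVELD3 (0.051 to 0.079). Depth per library is unknown, so its limit on these values was not measured.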
